A study of Rattus norvegicus with 11 samples.

Results

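The genes described here are the 6 actin isoform genes of the rat, Acta1, Acta2, Actb, Actc1, Actg1 and Actg2. They were taken by symbol from a table of 18507 genes, all 6 symbols were found, and each had a value above 0 in all 11 bladder libraries. The table holds FPKM (fragments per kilobase of exon, scaled to the fragments mapped in each library), so levels can be set side by side between genes. Between samples they also depend on the make-up of each library, and the changes given below were therefore also computed under other scalings. The rats were female Sprague-Dawley rats, about 6 months old according to the methods. In the obstructed group a suture was tied around the bladder neck and urethra to give partial bladder outlet obstruction (PBOO), and bladder tissue was taken at week 4 (n = 3) or week 5 (n = 2). In the control group, which the labels call normal, only the abdominal wall was cut and closed, and tissue was taken at week 4 (n = 3) or week 5 (n = 3). The columns of the week 5 controls are headed as adult animals and those of all week 4 libraries as inputs. The libraries hold RNA from bladder tissue with all its cell types, and the libraries of a group carry separate replicate numbers. The labels do not say that each came from its own rat, so the p-values measure the spread between libraries.

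Actin is the protein of thin filaments. Myosin pulls on these filaments when muscle contracts, and in all cells they build the cortex, stress fibres and adhesion sites. Mammals make it from 6 genes whose proteins are almost identical. Acta2 (alpha) and Actg2 (gamma) are the smooth muscle forms, and Actg2 is known as the main form of visceral muscle such as gut and bladder. Acta1 is the form of skeletal muscle and Actc1 that of heart, where Acta1 is known to return in hypertrophy, and both are also found at low levels in smooth muscle. Actb and Actg1 are the cytoplasmic forms made in nearly every cell. The muscle genes are known targets of serum response factor (SRF), which binds the CArG box, a short element with an A/T core, together with myocardin or the myocardin-related factors, the latter being released into the nucleus when free actin monomer is used up. Because the coding sequences are so alike, reads may be shared between these genes, and how the counting treated such reads is not given in the sources used here.

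The sequence before the start of each gene shows where it carries matches to the CArG box, the element through which SRF is known to act. RefSeq entries for 5 of the 6 genes were in the promoter table (GRCr8), Actb being the exception. The 250 bases before each start are printed 5′ to 3′ with matches in capitals. All 5 lie on the minus strand, Acta1 at chr19:68784195-68784444, Actc1 at chr3:121271828-121272077, Acta2 at chr1:241172504-241172753, Actg1 at chr10:106120952-106121201 and Actg2 at chr4:117594040-117594289.
Actc1: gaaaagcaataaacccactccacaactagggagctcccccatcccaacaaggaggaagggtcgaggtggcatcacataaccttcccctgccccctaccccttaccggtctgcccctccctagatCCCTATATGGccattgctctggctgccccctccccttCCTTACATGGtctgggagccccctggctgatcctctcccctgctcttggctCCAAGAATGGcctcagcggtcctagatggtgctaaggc
Acta1: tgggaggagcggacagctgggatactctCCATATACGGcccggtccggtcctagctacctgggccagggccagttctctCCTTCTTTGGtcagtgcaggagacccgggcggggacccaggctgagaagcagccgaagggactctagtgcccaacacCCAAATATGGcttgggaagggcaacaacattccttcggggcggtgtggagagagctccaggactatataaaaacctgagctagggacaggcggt
Acta2: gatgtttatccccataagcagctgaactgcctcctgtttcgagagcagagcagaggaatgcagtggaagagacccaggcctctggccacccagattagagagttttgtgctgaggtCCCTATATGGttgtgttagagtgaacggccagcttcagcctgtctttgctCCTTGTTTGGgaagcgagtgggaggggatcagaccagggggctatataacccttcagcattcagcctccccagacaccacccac
Actg1: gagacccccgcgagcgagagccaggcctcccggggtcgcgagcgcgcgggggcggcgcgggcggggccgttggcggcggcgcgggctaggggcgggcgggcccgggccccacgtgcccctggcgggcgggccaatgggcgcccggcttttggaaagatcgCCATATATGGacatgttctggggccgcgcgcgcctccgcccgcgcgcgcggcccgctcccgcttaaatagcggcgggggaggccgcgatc
Actg2: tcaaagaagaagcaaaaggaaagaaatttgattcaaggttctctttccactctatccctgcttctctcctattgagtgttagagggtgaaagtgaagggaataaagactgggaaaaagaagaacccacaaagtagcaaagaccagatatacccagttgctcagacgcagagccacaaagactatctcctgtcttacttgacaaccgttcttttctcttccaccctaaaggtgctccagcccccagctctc
The box was searched as a run of 10 bases in its exact form and in a form with 1 C or G in the core of 6. Both forms are their own reverse complement, so both strands were covered. Acta1 held 1 exact match, 94 to 85 bases before the start, and 2 near matches. Actg1 held 1 exact match at 90 to 81 bases and no near match. In Actc1 there were 3 near matches, the first at 126 to 117 bases, and in Acta2 there were 2, at 134 to 125 and at 84 to 75 bases. Actc1 and Acta2 shared the same 10 letters in the match farthest from the start. The window of Actg2 held no match of either form. Of 33469 windows of the same length, 1.50% held an exact match and 8.08% a match of either form. A match of this kind is a description of the letters, and binding was not measured here.

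In normal bladder, 3 of the genes stood far above the others. At week 4 the mean was 4421 ± 359 FPKM for Actg2, 3854 ± 596 for Acta2 and 3089 ± 696 for Actb (SD, n = 3). The ranges of Actg2 and Acta2 overlapped, and so did those of Acta2 and Actb. Actg1 followed at 539 ± 126 FPKM, Acta1 at 112 ± 9.79 and Actc1 at 59.8 ± 5.71 (SD, n = 3), each separated from the next. The normal bladders of week 5 gave the same order, from 5277 ± 442 FPKM for Actg2 to 52.1 ± 18.2 for Actc1 (SD, n = 3), with the same 3 genes overlapping at the top. Thus the striated muscle forms had values in every normal bladder that were low beside the other actins, though how shared reads were counted is not given. Among all genes of the table, Acta1 ranked 659 to 787 in the normal libraries of week 4 and 506 to 616 in those of week 5. Acta1 had between 1.62 and 3.41 times the FPKM of Actc1 in each of the 6 libraries.

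**Figure D1:**
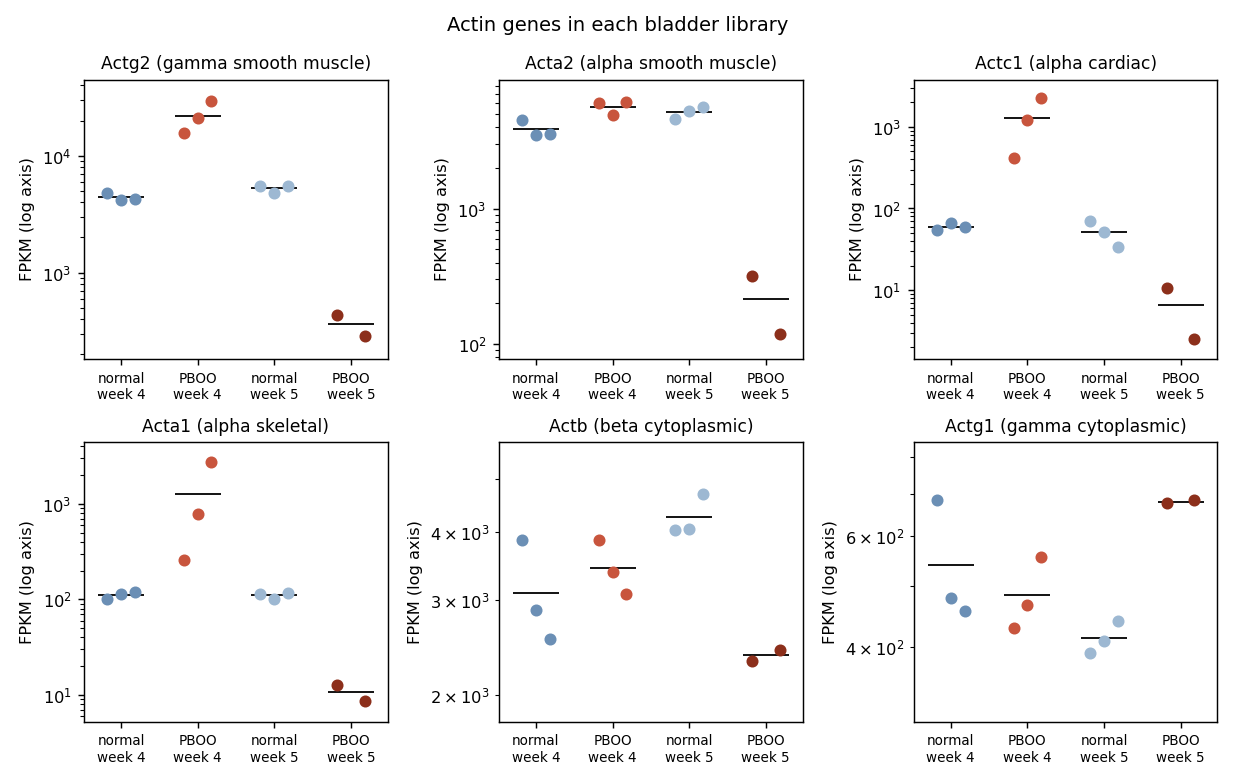
FPKM (log axis) of the 6 actin genes in each bladder library by group. Points are libraries and lines are means, and n is 3 in each group except PBOO at week 5, where n is 2. Actg2, Actc1 and Acta1 are above all normal libraries at week 4 and below them at week 5, while Actg1 at week 5 is higher in both PBOO libraries.

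To see how the actin genes stood in the enlarged bladder, the 3 PBOO and 3 normal libraries of week 4 were compared. Actg2 and Actc1 rose, Acta1 and Acta2 were higher in every PBOO library without passing the test, and the cytoplasmic genes Actb and Actg1 had overlapping groups. A gene was called when its Benjamini-Hochberg adjusted p, taken over all genes tested in limma, was under 0.05 and its change at least 2-fold, and 2 of the 6 actins were called. By this rule 0.371% of the 11320 genes tested were called in either direction, 0.265% as higher and 0.106% as lower in PBOO. At an unadjusted p under 0.05 and 2-fold, 3 of the 6 actins passed, all higher in PBOO, where 4.90% of all genes tested passed, 2.46% as higher and 2.45% as lower. The groups did not overlap in 4 of the 6, again all higher in PBOO, while 41.6% of all genes tested were separated, 6.63% as higher and 34.9% as lower. Over all genes tested the log2 fold change had a median of -0.25, and the actins' changes stand against that shift.

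Actg2 had 4834, 4187 and 4242 FPKM in normal replicates 1 to 3 and 15712, 20976 and 29521 FPKM in PBOO replicates 1 to 3. The groups were far apart, and the lowest PBOO library lay well above the highest normal one. In all 3 PBOO libraries Actg2 was the gene with the highest FPKM of the whole table, while in the normal libraries it ranked 5 or 6. Its log2 fold change was 2.27 (standard error, SE, 0.28, adjusted p = 0.0483 in limma), that is, 4.84-fold on the log2(FPKM + 0.1) scale used for all tests.

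Actc1, the cardiac form, had 54.2, 65.6 and 59.6 FPKM in normal replicates 1 to 3. In PBOO replicates 1 to 3 it had 413, 1213 and 2243 FPKM. No other actin changed as much in the fit, but the PBOO libraries differed from each other 5.43-fold, against 1.21-fold among the normal ones. The log2 fold change was 4.12 (SE 0.55, adjusted p = 0.0483 in limma), or 17.4-fold. Acta1, the skeletal form, had 101, 114 and 120.3 FPKM in normal replicates 1 to 3 and 257, 783 and 2741 FPKM in PBOO replicates 1 to 3. Its PBOO libraries were all higher than the normal ones but ranged over 10.7-fold, and the log2 fold change of 2.88 (standard error 0.75) did not pass (limma adjusted p = 0.0772). Within PBOO the 3 genes put the libraries in the same order, with replicate 3 highest and replicate 1 lowest.

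Acta2, the alpha smooth muscle form, had 4540, 3463 and 3558 FPKM in normal replicates 1 to 3. Its PBOO values were 5960, 4888 and 6106 FPKM in replicates 1 to 3, all above the normal ones. The difference was small, with a log2 fold change of 0.56 (95% interval 0.09 to 1.03, limma adjusted p = 0.118). Actb ranged from 2533 to 3869 FPKM in normal and from 3066 to 3864 FPKM in PBOO libraries. For this gene the 95% interval of the log2 fold change was -0.33 to 0.67 (limma adjusted p = 0.578). Actg1 ranged from 456 to 684 FPKM in normal and from 429 to 556 FPKM in PBOO libraries, and its interval was -0.59 to 0.30 (limma adjusted p = 0.606). The sign of the Actg1 change turned under 2 of the scalings tried, so no direction can be given for it.

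The calls at week 4 lie at the edge of the threshold. The smallest adjusted p of all genes was 0.0478. Leaving out normal replicate 1, 2 or 3 or PBOO replicate 2 or 3 ended both calls, with adjusted p values of 0.0818, 0.168, 0.213, 0.183 and 0.0812 for Actc1 and 0.0790, 0.168, 0.214, 0.183 and 0.0775 for Actg2 in that order. Without PBOO replicate 1, Actc1 had a log2 fold change of 4.79, Actg2 remained called, and Acta1 passed with 3.72 (limma adjusted p = 0.0131). Without PBOO replicate 3, the log2 fold change of Acta1 was 2.01. With the values scaled by median ratios, no gene of the table passed, and the adjusted p of Actc1 and Actg2 was 0.0551 for each.

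**Figure D2:**
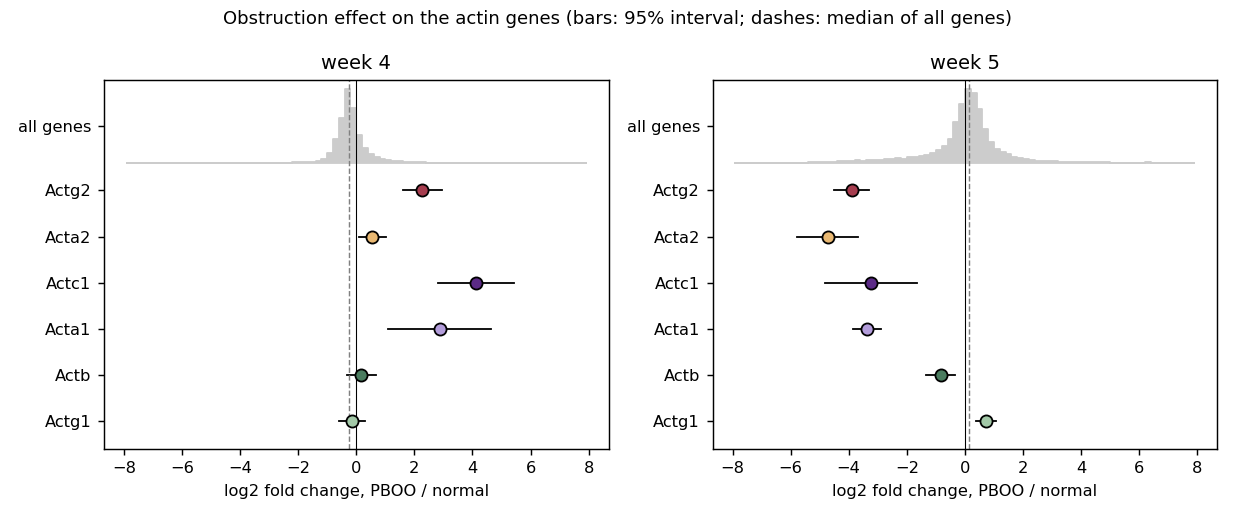
Log2 fold change (PBOO over normal) of each actin gene at week 4 and week 5, with 95% intervals from limma, under the distribution of all genes tested. At week 4, Actc1, Acta1 and Actg2 lie at 4.12, 2.88 and 2.27, and at week 5 the 4 muscle actins lie between -4.72 and -3.23 with Actb at -0.84 and Actg1 at 0.72.

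Within a sample, ratios between genes do not depend on any factor that multiplies the whole library, although quantile normalization can change them, and they are given here from the values as deposited. The FPKM ratio of Actg2 to Acta2 lay between 1.06 and 1.21 in the normal libraries of week 4 and between 2.64 and 4.84 in the PBOO libraries. Obstructed bladder at week 4 thus held more Actg2 relative to Acta2, with groups that did not overlap. The ratio of Actc1 to Acta2 lay between 0.0119 and 0.0189 in normal and between 0.0693 and 0.367 in PBOO libraries. Acta1 had more FPKM than Actc1 in all normal libraries of week 4, with ratios of 1.73 to 2.02, but the ratio was lower in each PBOO library, at 0.622 to 1.22. For Actg1 over Actb the groups overlapped, with 0.167 to 0.180 in normal and 0.111 to 0.181 in PBOO libraries. No test was made on these ratios.

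Acta1 and Actc1 mark striated muscle elsewhere in the body, so markers of muscle types were set beside them. Myh11, the heavy chain of smooth muscle myosin, had 2073 to 2453 FPKM in normal and 2754 to 3380 FPKM in PBOO libraries of week 4. Relative to Myh11, Actg2 had a ratio of 1.83 to 2.05 in normal and 4.91 to 10.7 in PBOO libraries, whereas the ratio of Acta2 overlapped, at 1.51 to 1.85 and 1.45 to 2.22. The summed FPKM of the 6 smooth muscle markers was 6615 to 7616 in normal and 14011 to 26687 in PBOO libraries, and 2 of the 6, desmin (Des) and calponin (Cnn1), passed the unadjusted threshold as higher (2.46% of all genes tested). None of the 6 was called, and the smallest p values were those of Synpo2 (log2 fold change 0.99, limma adjusted p = 0.0521) and Des (1.88, limma adjusted p = 0.0523).

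Markers of heart muscle were nearly absent. Of the 6 in that list, Myh6, Tnni3, Myl7, Nppa and Ryr2 lay between 0 and 1.49 FPKM in all 11 libraries, and Myl7 was listed at 0 in every PBOO library. The remaining gene, Tnnt2, which encodes cardiac troponin T, was abundant in normal bladder, at 1152 ± 52.9 FPKM (SD, n = 3) at week 4. Its value in PBOO at week 4 was 788 ± 21.3 FPKM (SD, n = 3), which gave a log2 fold change of -0.55 (limma adjusted p = 0.0559), opposite in sign to that of Actc1. Nppa, the only other gene of the list that was tested at week 4, had a log2 fold change of 0.02 (limma adjusted p = 0.983). The summed list ranged from 1093 to 1188 FPKM in normal and from 772 to 813 FPKM in PBOO libraries of week 4, nearly all of it Tnnt2.

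Markers of skeletal muscle did not all follow the groups. Mylpf, the fast skeletal light chain, had 6.07, 50.2 and 54.5 FPKM in normal and 2.67, 1.62 and 78.1 FPKM in PBOO replicates 1 to 3 of week 4. Myh1, a fast myosin heavy chain, had 0.277, 2.25 and 2.39 FPKM in the normal and 0.0243, 0.106 and 9.28 FPKM in the PBOO libraries. PBOO replicate 3, which had the highest Acta1, thus also had the highest Mylpf and Myh1. PBOO replicate 2 had more Acta1 than any normal library, with Mylpf and Myh1 below every normal library. The summed FPKM of the 8 skeletal markers was 318 to 611 in normal and 717 to 1558 in PBOO libraries, with Ryr1 listed at 0 throughout week 4. Most of this sum was Tnnc2, a fast troponin C, with 223 to 397 FPKM in normal and 596 to 1208 FPKM in PBOO libraries (log2 fold change 1.45, limma adjusted p = 0.0628). Of the 7 markers tested, none was called, and 2, Tnnc2 and Tnnt3, passed the unadjusted threshold as higher (2.46% of all genes tested), Tnnt3 with a log2 fold change of 1.81 (limma adjusted p = 0.0764). The other 5, Ckm, Tnni2, Mylpf, Myh1 and Myh4, had log2 fold changes below 0, and the list's median was -1.02, opposite in sign to the change of its sum. Ckm had 58.2 ± 6.52 FPKM in normal and 45.8 ± 12.1 FPKM in PBOO libraries, and Tnni2 32.4 ± 11.3 and 17.7 ± 11.6 FPKM (SD, n = 3). Normal replicate 1 was the lowest normal library for this list and also for the fibroblast and leukocyte lists. The part of these markers in the Acta1 values was not tested.

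Among the marker lists of other cell types, only the urothelial sum separated the groups at week 4. The summed FPKM of the urothelial list, the cells that line the bladder, was 4750 to 5781 in normal and 2799 to 3522 in PBOO libraries, without overlap, and Krt7 of this list was listed at 0 throughout week 4. All 4 uroplakins, the proteins of the urothelial surface, had lower values in PBOO, among them Upk1b with a log2 fold change of -0.70 and Upk2 with -0.73 (limma adjusted p = 0.0538 for each). None of the 5 urothelial genes tested was called or passed the unadjusted threshold with its 2-fold limit. The summed fibroblast, leukocyte and endothelial lists overlapped between the groups, and no gene of these lists was called or passed the unadjusted threshold. The genes with the smallest p in them were Col1a1 (log2 fold change 0.90) and Lum (0.96), Cd68 (0.89) and Itgam (1.24), and Kdr (-0.47) and Vwf (0.40), at limma adjusted p values between 0.115 and 0.359. The part of these cell types in the actin values was not tested.

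**Figure D3:**
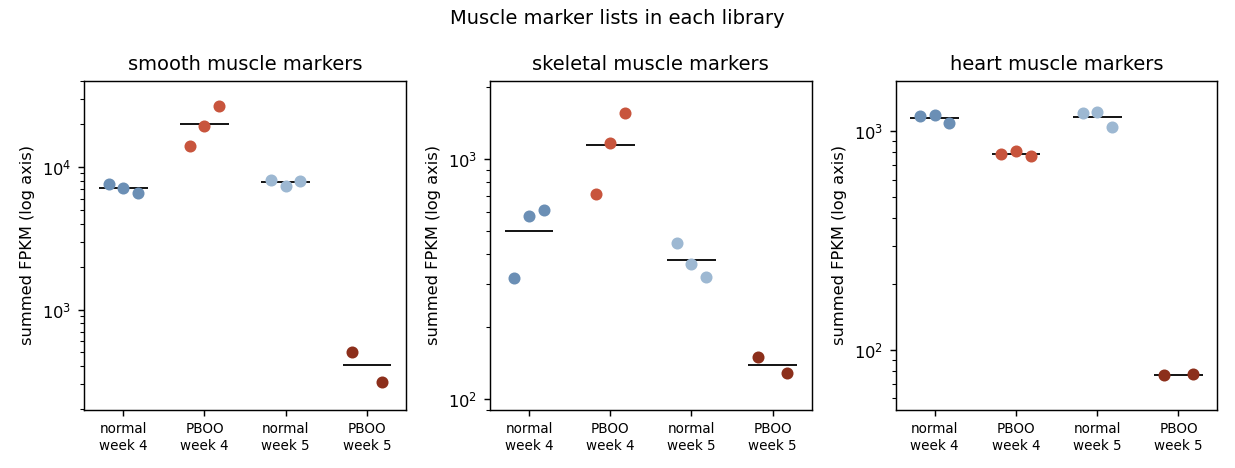
Summed FPKM (log axis) of the smooth, skeletal and heart muscle marker lists in each library, with lines at the group means and 3 libraries a group except PBOO at week 5 with 2. At week 4 the PBOO sums are higher for smooth muscle and for skeletal muscle, the latter carried by Tnnc2 while the list's median log2 fold change is -1.02, and lower for heart. At week 5 all 3 sums are lower in PBOO. The heart sum is nearly all Tnnt2 in each group.

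At week 5 the muscle actins were at the other end. Comparing the 2 PBOO with the 3 normal libraries, Acta2, Actg2, Acta1 and Actc1 fell, and these 4 of the 6 actins were called by the same rule as at week 4. The background was high, since 19.3% of the 13685 genes tested were called in either direction, 11.4% as lower and 7.91% as higher in PBOO. All 6 actins had groups that did not overlap, 5 lower and 1 higher, but with 3 against 2 libraries 60.2% of all genes tested were separated, 25.0% as lower and 35.3% as higher. Over all genes tested the log2 fold change had a median of 0.12. At an unadjusted p under 0.05 and 2-fold, 22.4% of all genes passed, 9.82% as higher and 12.6% as lower, and the same 4 actins passed.

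Acta2 had 4584, 5218 and 5574 FPKM in normal replicates 1 to 3 and 316 and 118 FPKM in PBOO replicates 1 and 2. Its log2 fold change of -4.72 (SE 0.42, adjusted p = 0.00134 in limma) was the largest of the family. Actg2 had 5525, 4767 and 5541 FPKM in normal and 433 and 287 FPKM in PBOO libraries, a log2 fold change of -3.90 (SE 0.24, adjusted p = 0.000461 in limma). The main actin of visceral muscle was therefore 14.9-fold lower, and its rank among all genes went from 2 to 4 in normal to 131 and 225 in PBOO libraries.

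Acta1 had 114, 101 and 116 FPKM in normal and 12.8 and 8.72 FPKM in PBOO libraries, a log2 fold change of -3.37 (SE 0.19, adjusted p = 0.000341 in limma). Actc1 had 70.5, 51.6 and 34.2 FPKM in normal and 10.7 and 2.51 FPKM in PBOO libraries, a log2 fold change of -3.23 (SE 0.63, adjusted p = 0.0156 in limma). Both PBOO libraries were thus under the lowest normal one for each gene. The PBOO libraries of Actc1 and Acta2 differed from each other 4.28-fold and 2.67-fold. Without PBOO replicate 1 the log2 fold change was -4.26 for Actc1 and -5.43 for Acta2, and without PBOO replicate 2 it was -2.21 and -4.02. Actc1 lost its call without normal replicate 1 (adjusted p = 0.0579) or normal replicate 2 (adjusted p = 0.0575).

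The cytoplasmic actins changed less than 2-fold and were not called. Actb had 4030, 4041 and 4697 FPKM in normal and 2314 and 2421 FPKM in PBOO libraries, a log2 fold change of -0.84 (95% interval -1.36 to -0.33, limma adjusted p = 0.0315). Actg1 had 391, 409 and 440.4 FPKM in normal and 676 and 683 FPKM in PBOO libraries, a log2 fold change of 0.72 (95% interval 0.38 to 1.05, limma adjusted p = 0.0140). The 2 genes thus differed in sign, and the FPKM ratio of Actg1 to Actb was 0.0938 to 0.101 in normal and 0.282 to 0.292 in PBOO libraries. The adjusted p of both was over 0.05 when any of the 3 normal libraries was left out, at 0.0877 to 0.134 for Actb and 0.0550 to 0.0934 for Actg1.

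Smooth muscle markers fell with the actins at week 5, and in bulk tissue fewer cells of a type cannot be told apart from less RNA per cell. All 6 markers were called as lower in PBOO, with a summed FPKM of 7388 to 8053 in normal and 310.0 to 502 in PBOO libraries. Over all genes tested at week 5, 11.4% were called as lower and 7.91% as higher, which stands beside the counts of each marker list given here. Myh11 had a log2 fold change of -4.69 (SE 0.24, adjusted p = 0.000289 in limma), close to that of Acta2, and Synpo2 (-5.70), Lmod1 (-5.02) and Cnn1 (-4.25) fell as well. The ratio of Acta2 to Myh11 overlapped between the groups, at 2.05 to 2.51 in normal and 1.75 to 2.85 in PBOO libraries. The other muscle actins were higher relative to Myh11 in both PBOO libraries. For Actg2 the ratio was 2.29 to 2.47 in normal and 3.92 to 4.27 in PBOO, for Acta1 0.0485 to 0.0509 and 0.116 to 0.129, and for Actc1 0.0142 to 0.0315 and 0.0373 to 0.0971. Of the 6 skeletal markers tested, 3, Ckm (-5.28), Tnnc2 (-2.90) and Tnnt3 (-2.55), were called as lower and 2, Tnni2 (2.36) and Mylpf (1.49), as higher, and the summed list was 323 to 446 FPKM in normal and 127 to 149 FPKM in PBOO libraries. Of the 6 heart markers listed only 2 were tested, and both, Tnnt2 (-3.92) and Myh6 (-3.11), were called as lower. The values of Myh6 were low, at 1.03 ± 0.58 FPKM in normal (SD, n = 3) and 0.0177 ± 0.0250 FPKM in PBOO libraries (SD, n = 2). Myh6 passed the filter on low values through the normal libraries alone, so its direction was set by the filter. The summed urothelial list overlapped, at 5806 to 7020.2 and 5987 to 6822 FPKM, but its genes went both ways. Krt5, the keratin of basal cells, rose, with 134 ± 43.1 FPKM in normal (SD, n = 3) and 1819.5 ± 1471 FPKM in PBOO libraries (SD, n = 2) and a log2 fold change of 3.52 (limma adjusted p = 0.00893), and Upk2 fell, with 1704 ± 139.5 FPKM in normal (SD, n = 3) and 324 ± 4.95 FPKM in PBOO libraries (SD, n = 2) and a log2 fold change of -2.39 (limma adjusted p = 0.000532). Of the endothelial markers none was called, and Vwf had a log2 fold change of 2.22 (limma adjusted p = 0.0506) and Pecam1 0.82 (limma adjusted p = 0.152). Among other cell types, 3 of 4 fibroblast markers, Col1a1 (-3.80), Dcn (-3.52) and Lum (-2.94), were called as lower and 2 of 4 leukocyte markers, Cd68 (3.22) and Cd3e (3.01), as higher. The summed leukocyte list was 6.31 to 16.5 FPKM in normal and 82.0 to 96.1 FPKM in PBOO libraries, and the part of these shifts in the actin values was not tested.

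Whether the effect of obstruction differed between the weeks was tested over all 11 libraries as the difference of the log2 fold changes, week 5 minus week 4. All 6 actins passed an adjusted p of 0.05 in limma, where 40.0% of the 11296 genes tested did, 26.5% with a higher and 13.5% with a lower effect at week 5. At an unadjusted p under 0.05 these shares were 50.3%, 34.6% and 15.7%, and all 6 actins passed. The muscle genes had differences of -7.35 for Actc1 (SE 0.93, adjusted p = 0.000292), -6.25 for Acta1 (SE 0.95, adjusted p = 0.000867), -6.17 for Actg2 (SE 0.38, adjusted p = 3.70e-06) and -5.28 for Acta2 (SE 0.46, adjusted p = 2.66e-05). These 4 passed under every setting tried, but 3 of the sizes rest on single PBOO libraries. Actc1 was at -8.02 without replicate 1 of week 4, -8.38 without replicate 1 of week 5 and -6.33 without replicate 2 of week 5. Acta1 was at -7.09 without replicate 1 and -5.38 without replicate 3 of week 4, and Acta2 at -5.99 without replicate 1 and -4.57 without replicate 2 of week 5. Actb had a difference of -1.01 (adjusted p = 0.0201) and Actg1 one of 0.86 (adjusted p = 0.0204), beside a median of 0.35 over all genes. The call of Actb was lost without the filter on low values (adjusted p = 0.0579), with quantile normalization (adjusted p = 0.170) and without normal replicate 2 or 3 of week 4 or normal replicate 3 of week 5, at adjusted p values of 0.0509, 0.0555 and 0.0506, and that of Actg1 with each of the 3 other scalings. The libraries of the 2 weeks also differ as sets, since 4871 genes were listed at 0 in all week 4 libraries and 403 in all week 5 libraries, so week and library set cannot be told apart.

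The 6 genes can also be read as 1 pool of actin transcripts. Their summed FPKM was 10969 to 14082 in normal and 26634 to 44234 in PBOO libraries of week 4, and 14587 to 16403 in normal and 3521 and 3762 in PBOO libraries of week 5. The pool was therefore larger in all obstructed bladders at week 4 and smaller in both at week 5. It made up 1.94% to 2.59% of the FPKM sum of all genes in normal and 5.17% to 8.32% in PBOO libraries of week 4, and 3.38% to 3.86% and 0.750% to 0.866% at week 5. The smooth muscle pair Acta2 and Actg2 took 66.6% to 71.1% of the pool in the normal bladders of week 4 and 80.5% to 81.6% in PBOO. Inside the pair, Actg2 went from 34.3% to 38.7% of the pool in normal to 59.0% to 66.7% in PBOO libraries, and Acta2 from 31.0% to 32.4% to between 13.8% and 22.4%. The striated pair Acta1 and Actc1 took 1.10% to 1.64% in normal and 2.51%, 6.30% and 11.3% in PBOO replicates 1 to 3. At week 5 the make-up was turned over, and the cytoplasmic pair Actb and Actg1, at 30.0% to 31.3% of the pool in normal bladders, took 79.5% and 88.2% in PBOO. Actb alone was the top actin in those 2 libraries, ahead of Actg1, and the ranges of Actg2 and Acta2 overlapped below them.

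**Figure D4:**
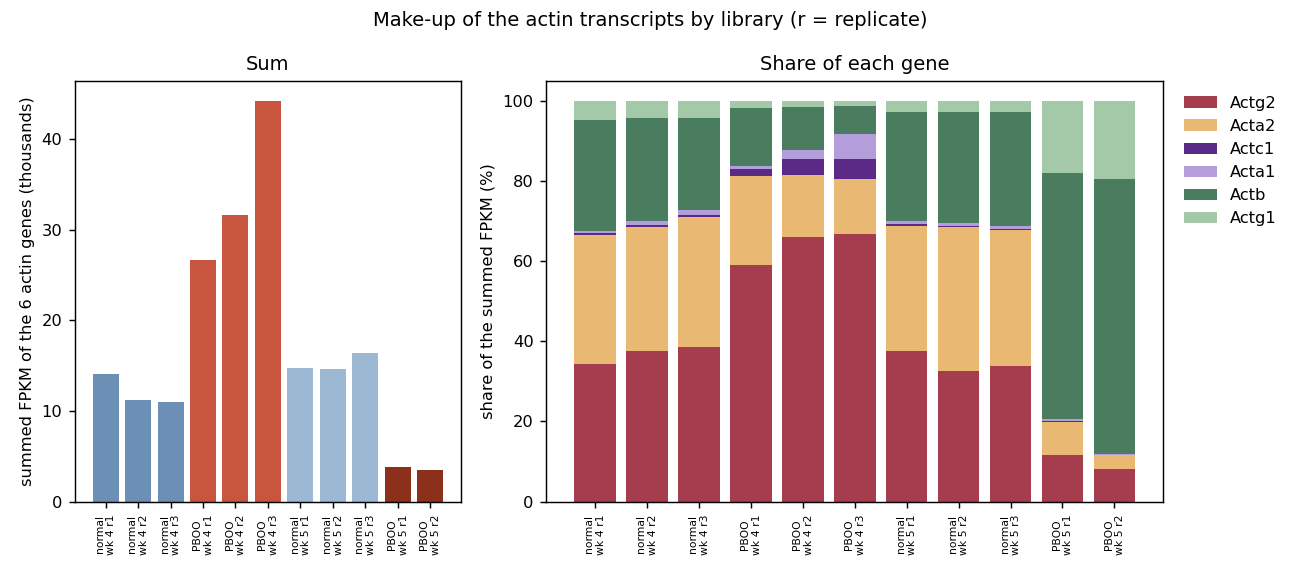
Left, summed FPKM of the 6 actin genes for each library. Right, share of each gene in that sum in percent. Actg2 takes 59.0% to 66.7% of the pool in PBOO at week 4, and Actb with Actg1 take 79.5% and 88.2% in PBOO at week 5.

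The genes that control and handle actin were read from 6 lists. The first holds SRF and factors that work with it. Of 14 tested at week 4 none was called. Fhl1, a LIM protein of muscle, alone passed the unadjusted threshold as higher (2.46% of all genes tested), with a log2 fold change of 1.51 (limma adjusted p = 0.0521). Wwtr1, a coactivator, was next by p, at 0.40 (limma adjusted p = 0.123). Srf itself had 52.7 ± 9.21 FPKM in normal and 56.1 ± 9.13 FPKM in PBOO libraries of week 4 (SD, n = 3), and myocardin (Myocd) 13.4 ± 4.47 and 11.3 ± 3.16 FPKM (SD, n = 3), so the groups lay within each other's spread. The myocardin-related factors, in the table as Mkl1 and Mkl2, were listed at 0 in all 6 libraries of week 4. They are among 4871 genes listed at 0 in all week 4 libraries, against 403 genes in all week 5 libraries. Mkl1 had 6.17 ± 0.18 FPKM in the normal libraries of week 5 (SD, n = 3). A 0 at week 4 therefore does not show that a gene was not expressed. At week 5, 5 of 17 (29.4%) fell and none rose, beside the 11.4% of all genes called as lower and 7.91% as higher. Among them were Fhl1 (log2 fold change -4.14), Myocd (-3.86), Gata6 (-3.36), a transcription factor of smooth muscle, and Srf (-1.52, limma adjusted p = 0.00783). The list's median log2 fold change was 0.02 at week 4 and -0.51 at week 5, beside -0.25 and 0.12 for all genes.

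Genes of monomer binding and filament turnover showed no call in limma among 24 tested at week 4. At the unadjusted threshold 1 passed as higher (2.46% of all genes tested). Cfl2, the muscle cofilin that severs filaments, had a log2 fold change of 1.50 (limma adjusted p = 0.0538), and Scin, another severing protein, -0.93 (limma adjusted p = 0.0631). At week 5, 4 of 26 (15.4%) were called as higher and 3 (11.5%) as lower in PBOO, the latter at the share of all genes (11.4%) and the former above it (7.91%). Coro1a, the coronin of leukocytes, rose by 2.62 on the log2 scale, and thymosin beta 4 (Tmsb4x), which holds actin monomers, by 1.64, along with the capping protein Capg (1.12) and twinfilin 2 (Twf2, 1.11). Cap2, a cyclase-associated protein of muscle, changed by -5.12, Cfl2 by -3.04 and gelsolin (Gsn) by -1.77. The medians were 0.07 at week 4 and 0.10 at week 5.

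Nucleation genes, which start new filaments, had no call in limma among 25 at week 4, and 1 passed the unadjusted threshold as higher (2.46% of all genes tested). Diaph3, a formin, had the largest value, with a log2 fold change of 3.27 (limma adjusted p = 0.0633). Its values were 0.424 ± 0.117 FPKM in normal and 7.01 ± 6.68 FPKM in PBOO libraries (SD, n = 3). Diaph3 passed the filter on low values through the PBOO libraries alone, so its direction was set by the filter. Arpc5l, a subunit of the actin-related protein complex, had -0.42 (limma adjusted p = 0.0819). At week 5, 2 of 27 (7.41%) rose, which is about the share of all genes (7.91%), the formins Fmnl1 (log2 fold change 2.05) and Fhod1 (1.41), and 7 (25.9%, beside 11.4%) fell, led by the formin Fhod3 (-5.07), the smooth muscle leiomodin Lmod1 (-5.02), Wasf1 (-2.90) and Actr3b (-2.64). Crosslinking and anchoring genes had 1 call among 33 at week 4 (3.03%), beside 0.265% of all genes called as higher. At the unadjusted threshold 4 passed as higher (2.46% of all genes tested). The called gene was filamin C (Flnc), which ties filaments to the membrane in muscle. It had 55.7 ± 14.9 FPKM in normal and 205 ± 27.9 FPKM in PBOO libraries (SD, n = 3), which gave a log2 fold change of 1.90 (SE 0.20, adjusted p = 0.0478 in limma). The count of 1 changed in 13 of the 16 alternatives, to 0 in 7 of them, among them median-ratio scaling and no filter on low values, and to as many as 6 without PBOO replicate 1. At week 5, 15 of 29 (51.7%) in this list fell and 2 (6.90%) rose, beside 11.4% and 7.91% of all genes, and its median was -1.17. Flnc (-4.15), Pdlim3 (-4.02), filamin A (Flna, -3.69) and nexilin (Nexn, -3.63) fell most, and fascin (Fscn1, 1.97) and Lima1 (1.26) were the genes that rose.

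The chaperones and enzymes that fold and process actin had no call in either week, among 14 and 17 genes tested, and none passed the unadjusted threshold. At week 4 the prefoldin genes Pfdn5 and Pfdn2 had log2 fold changes of -0.76 (limma adjusted p = 0.0503) and -0.50 (limma adjusted p = 0.0538). At week 5 Pdcl3 had -0.69 (limma adjusted p = 0.00766), under the 2-fold limit, and Setd3, which methylates actin, -0.51 (limma adjusted p = 0.0551). Their medians, -0.35 at week 4 and 0.13 at week 5, were near those of all genes. The list of sarcomere and fetal heart genes, the partners of Acta1 and Actc1 in striated muscle, also had no call in limma among 20 at week 4, with a median of -0.36. In this list 4 passed the unadjusted threshold as higher (2.46% of all genes tested). The lowest unadjusted p in it was that of Casq2, a calcium store protein, with 18.3 ± 1.52 FPKM in normal and 71.5 ± 39.2 FPKM in PBOO libraries (SD, n = 3) and a log2 fold change of 1.82 (limma adjusted p = 0.0538), followed by Tnnt2 at -0.55. At week 5, only 11 of the 27 genes listed passed the filter on low values. Of these, 9 (81.8%) fell and 2 (18.2%) rose, beside 11.4% and 7.91% of all genes. Ankrd1 had 3.04 ± 0.06 FPKM in normal (SD, n = 3) and 0.228 ± 0.185 FPKM in PBOO libraries (SD, n = 2). A gene under 0.5 FPKM in PBOO, such as Ankrd1, passed the filter through the normal libraries alone. Its direction was then set by the filter, and the share of 81.8% is limited by this. Muscle creatine kinase (Ckm) changed by -5.28, Tnnt2 by -3.92, Casq2 by -3.44 and Ankrd1 by -3.39, while the fast troponin I gene Tnni2 (2.36) and Mylpf (1.49) rose.

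**Figure D5:**
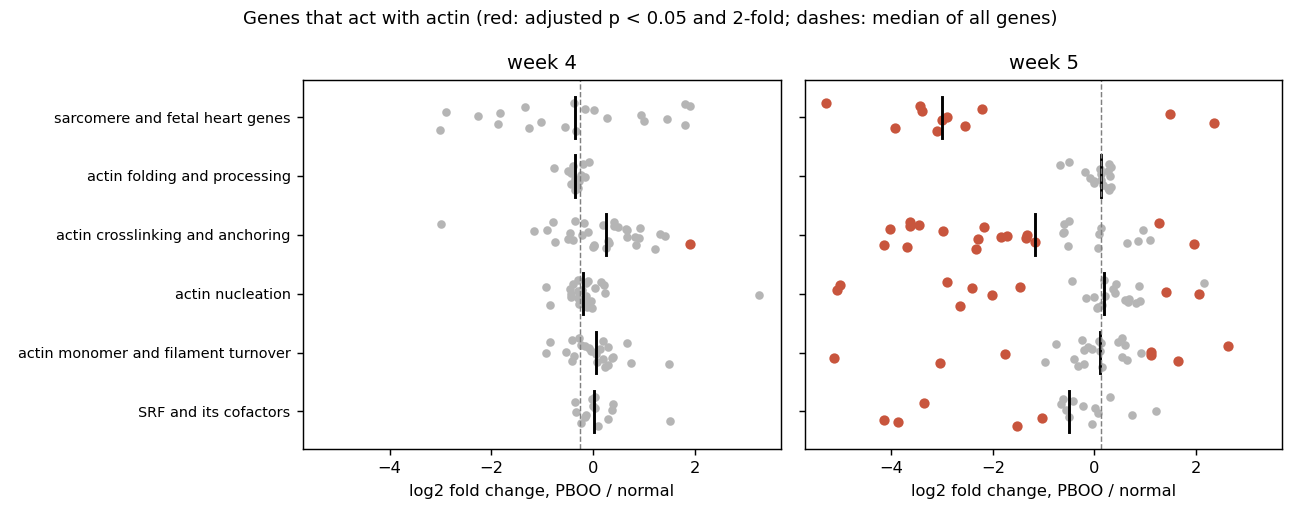
Log2 fold change (PBOO over normal) of single genes in 6 lists of genes that act with actin, at week 4 and week 5. Red points were called, black bars are list medians, and the dashed line is the median of all genes tested. At week 4 only Flnc is red, and at week 5 the sarcomere and crosslinking lists have medians of -3.00 and -1.17.

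The genes with the pattern most like an actin gene were looked for by Pearson's r over the 11 libraries, on deviations from the mean of the normal libraries of the same week. All genes share these libraries and the wide spread between PBOO at week 4 and at week 5, so the values are given as a description. Among 9964 other genes, those nearest to Actg2 were Des (r = 0.996), Casq2, Cnn1, Cfl2 and Fstl3 (r = 0.992). Des is the intermediate filament protein of muscle and Cnn1 an actin-binding protein of smooth muscle. Nearest to Acta2 were Mrgprf (r = 0.995), Synpo2, Tagln, Csrp1 and Kank2 (r = 0.994). Tagln (transgelin) and Synpo2 bind actin filaments in smooth muscle. Nearest to Actc1 were Prss23 (r = 0.980), Dusp3, Rexo2, Iffo2 and Itgb1 (r = 0.974), of which Prss23, a secreted protease, was called as higher at week 4 (log2 fold change 1.96, limma adjusted p = 0.0483). Among the actins themselves, Actc1 and Acta1 had r = 0.970, Acta1 and Actg2 0.961, and Actg1 had negative values with each of the others, from -0.84 with Acta2 to -0.68 with Actc1.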

How the data were processed

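The deposited table gives, per the file headers and the methods, 1 FPKM value per gene and library, which the authors made from paired-end TruSeq libraries with HISAT2 v2.0.4, StringTie v1.3.1 and featureCounts. The submitters' processing notes name the mouse build mm10, while 2331 symbols of the table start with LOC or RGD, as rat gene names do, and 15559 of 18507 (84.1%) are symbols of rat RefSeq (GRCr8). The annotation and the strand setting are not given in the sources used here. The FPKM sums range from 424961 to 564343. Low values did not fall on clear whole-read steps, so the depth is unknown and no counting error is given. The authors' DESeq2 test needs counts and was not run. No further scaling was applied.

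All 11 columns were matched to samples by the labels. Each week was fitted alone with limma 3.58.1 (R 4.3.3) on log2(FPKM + 0.1), with a trend in eBayes, keeping genes whose mean over the libraries fitted reached 0.5 FPKM. A gene with a mean under 0.5 FPKM in 1 group could pass through the other group alone, and its direction was then set by this filter. Among the list genes named, this held for Diaph3 at week 4 and for Myocd, Cap2, Wasf1, Actr3b, Ankrd1 and Myh6 at week 5. The adjusted p is Benjamini-Hochberg over all genes tested, and the threshold of 0.05 with a 2-fold change follows the methods. All 11 libraries entered the test between weeks. The 6 members, the lists and the tests were chosen with earlier results of these data known. All actins are named, and from each list the called genes, at most 4 a direction by size, or else the 2 with the smallest p. A few further genes (Myh11, Mylpf, Myh1, Srf, Myocd, Mkl1, Mkl2, and muscle markers) were named after their values were seen. Lists were matched by symbol, with older symbols from RefSeq for Mkl1, Mkl2 and Nat6. For likeness, the mean in each week had to reach 1 FPKM. Alternatives were another pseudocount, filter, scaling or variance model, a replicate block, and leaving out each library. The steps were tested on simulated data. Python 3.11.15, pandas 2.3.3, numpy 2.4.6 and matplotlib 3.10.9 were used.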

Additional observations from a re-analysis of the deposited data

Results flagged for a closer look

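The effect of obstruction differed between week 5 and week 4 for all 6 actin genes by the test of the difference itself in limma, which 40.0% of the 11296 genes tested also passed. Of 20 alternatives, the call of Actb was lost in 5 and that of Actg1 in 3. Week and library set cannot be told apart. On the log2 scale, week 5 minus week 4, the difference was -6.25 for Acta1, -5.28 for Acta2, -1.01 for Actb, -7.35 for Actc1, 0.86 for Actg1 and -6.17 for Actg2. The fitted change of the 4 muscle genes was above 0 at week 4, where only Actc1 and Actg2 passed, and below 0 at week 5, where all 4 passed. No group had 4 or more libraries, so no search for single outlying libraries was made.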

How the results depend on the processing

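As reported, 2 actin genes were called at week 4. The count was 0 without the filter on low values, with median-ratio scaling and without a trend in eBayes, and 0 to 3 when single libraries were left out. It was 3 with all libraries in 1 fit, where Acta1 passed too (adjusted p = 0.0325). With a replicate block it was 1, Actc1, because Actg2 had an adjusted p of 0.0573. Whether the replicate numbers pair the libraries is not known. The deviations of same-numbered libraries at week 4 correlated at 0.15, -0.02 and 0.23, and those of differently numbered ones at -0.21 to 0.09. These few values do not settle it. At week 5 same-numbered libraries were at -0.00 and 0.12, but the deviations of 2 PBOO libraries mirror each other, so these values cannot show pairing. With the block, the adjusted p values of Actb and Actg1 at week 5, which were not called as reported, rose to 0.298 and 0.116. Apart from Actg2 at week 4, no actin call changed with the block. The count at the unadjusted threshold stayed at 3 of 6 at week 4 and 4 of 6 at week 5 under all alternatives, as did the 4 calls at week 5 with the exception of Actc1 without normal replicate 1 or 2. The log2 fold change of Actg1 at week 4, -0.14, turned to 0.11 with median-ratio scaling, 0.053 with quantile normalization, and ranged from -0.25 without normal replicate 3 to 0.043 without normal replicate 1. Of 306 values of actin genes under alternatives, 264 kept direction and side of the threshold. Over all genes at week 4, 42 were called as reported and 0 without the filter, with median-ratio scaling, without a trend, and without normal replicate 2 or 3 or PBOO replicate 2 or 3. There were 20 without normal replicate 1, 719 without PBOO replicate 1, 110 with a mean of at least 5 FPKM, 85 with quantile normalization and 242 with all libraries in 1 fit. At week 5, 2637 were called as reported and 1679 without normal replicate 1. The share of higher genes at the unadjusted threshold was 50.1% at week 4, and 77.9% with median-ratio scaling, 71.3% with quantile normalization and 63.4% with equal sums. Between weeks it was 68.7%, and 50.8%, 55.3% and 58.3% in that order. Of 612 counts in gene lists, 51 moved by over 1.5 times, 43 of them at week 4, the cause of which was not tested. With 1 PBOO library left at week 5, that library is assumed to vary like the others. The unknown depth limits what can be said of low values.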
